A study of Neurospora crassa with 6 samples.

Results

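The mitochondrial respiratory chain and ATP synthase are described here through 39 of the 10559 genes in a table from Neurospora crassa hyphae. The 39 were chosen by symbol, as every gene whose name begins with nuo or is cox, cya, qcr, atp, sdh, fes or cyc followed by a number. Earlier results of these data were known when this choice was made. They comprise 29 subunit genes of complex I, 3 of complex III, cyc-1 for cytochrome c, 3 of complex IV, 2 of ATP synthase and cya-5, which encodes no subunit. No symbol beginning with sdh occurs in the table (0 genes), so complex II is not described. All 39 matched a protein-coding gene of the RefSeq table of assembly NC12 by symbol, and 0 of them lie on the mitochondrial chromosome. Among the 10526 genes of the table that were matched to RefSeq, 0 are protein-coding genes of that chromosome, and 33 genes were not matched. The subunits encoded in the mitochondrion are therefore not analysed here.

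The hyphae were of a strain labelled delta_cry, delta_vvd and delta_wc-1, lacking by its label the cryptochrome and the blue-light photoreceptors VIVID and White Collar-1. They had spent 45 min in a medium with 2% glucose in darkness, under 1000 lux or under 5000 lux, with 2 polyadenylated RNA libraries for each condition. All groups carry the same label, and no strain labelled as having these genes intact is analysed here. Neither separate cultures for the 2 libraries of a condition nor the number of clones is stated in the labels. A p-value here therefore sets a difference against library-to-library spread, which may be technical.

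The chain passes electrons from NADH to oxygen and uses the energy to pump protons out of the matrix. Complex I oxidises NADH and reduces ubiquinone, complex III hands the electrons to cytochrome c, and complex IV passes them to oxygen. ATP synthase makes ATP as the protons return. Neurospora crassa is a classic organism for the study of complex I, and its subunits are named after their masses. The fungus also has bypasses that pump no protons, namely alternative NADH dehydrogenases and an inducible alternative oxidase.

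All levels are in RPKM, a read count divided by the length of the gene and the size of its library, which allows genes to be compared. The 6 RPKM denominators lay between 21420000 and 28260000 reads, and every member except cya-5 had at least 1366 reads in every library, a counting error of at most 2.7%. cya-5 had at least 224 reads (6.7%). The hyphal markers hex-1, of the Woronin body that plugs septal pores, and so had 1035 to 1220 and 19.8 to 22.6 RPKM. The 5 conidial markers eas, con-6, con-8, con-10 and con-13 summed to 237 and 194 RPKM in the dark libraries, 104 and 109 RPKM under 1000 lux and 183 and 254 RPKM under 5000 lux. None of the 5 was at 0 in any library (0 genes), con-6 and con-13 stayed under 1 RPKM, and eas, the hydrophobin of the conidial coat, made up most of each sum. Against darkness eas fell at 1000 lux (log2 fold change -1.38, limma adjusted p = 0.000459), whereas con-10 rose (0.96, limma adjusted p = 0.0155). con-8 had 29.5 and 29.6 RPKM at 1000 lux, against 22.1 and 19.1 RPKM in darkness (0.50, limma adjusted p = 0.114), and was called lower at 5000 against 1000 lux (-0.96, limma adjusted p = 0.0341). A different share of conidia and a different level of these transcripts within the cells cannot be told apart in bulk RNA. The sums were lowest at 1000 lux through eas, while con-8 and con-10 were highest there, and the part of these genes in the results at that intensity was not tested. Reads were also listed for the 3 genes whose deletion the label gives, with wc-1 at 6.31 to 9.04, vvd at 1.95 to 3.44 and cry at 1.59 to 2.56 RPKM in the 6 libraries. The median gene of a library had 7.49 to 8.24 RPKM. All 3 reached the minimum for testing of 1 RPKM in 2 libraries, and vvd was called lower at 1000 lux against darkness (-0.51, limma adjusted p = 0.0473). These values do not show the deletions, and which part of each gene was removed is not given in the labels.

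Most of these genes were highly expressed and varied less over the 6 libraries than the median gene tested. Of the 39, 38 were among the top 10% of all genes by mean RPKM over the 6 libraries. The median member averaged 149 RPKM. The order was led by atp-2 (897 RPKM) and atp-1 (509 RPKM), the catalytic beta and the alpha subunit of the F1 part of ATP synthase. They were followed by qcr8 (418 RPKM), a small subunit of complex III, and by cya-4 (376 RPKM) and cox-6 (355 RPKM) of complex IV. The coefficient of variation over all 6 libraries had a median of 6.88% among members and 12% among the 7841 genes tested, and 35 members lay below that 12%. Those 7841 genes reached at least 1 RPKM in at least 2 libraries, a minimum that all 39 members passed. They include genes of low level, for which counting error is larger. The coefficient was not compared with that of genes of like level.

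**Figure D1:**
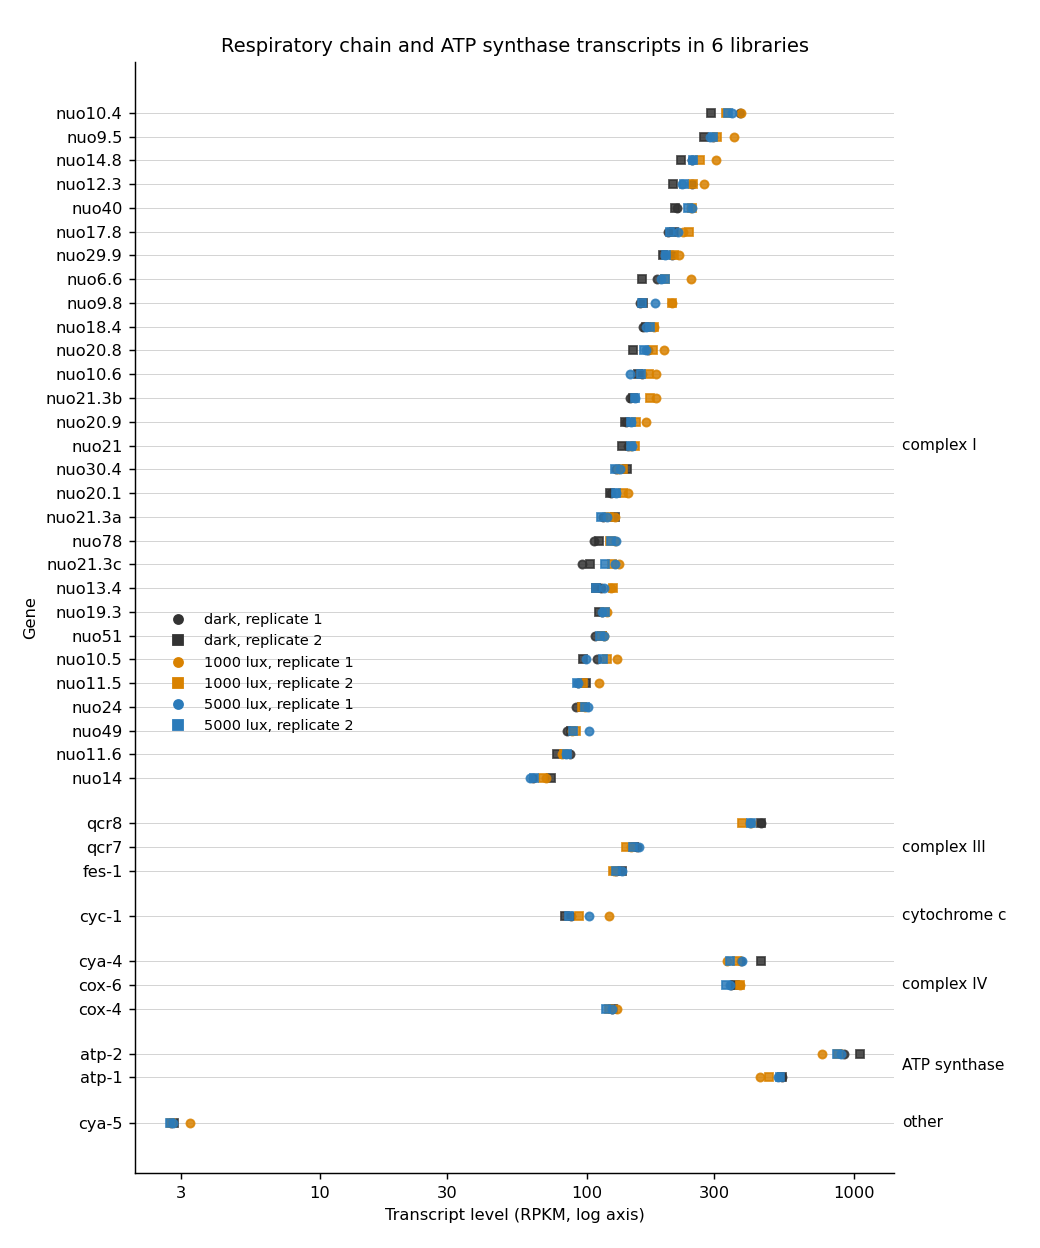
RPKM (log axis) of the 39 genes in each of the 6 libraries, grouped by complex and ordered by mean level. The 29 complex I genes lie between 61.2 and 378 RPKM, atp-2 and atp-1 stand above them, and cya-5 is far below at 2.73 to 3.25 RPKM.

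Within complex I the means ran from 66.6 RPKM for nuo14 to 344 RPKM for nuo10.4, a range of 5.17-fold among subunits of a single enzyme, and 25 of the 29 lay between 80 and 250 RPKM. The lowest, nuo14, had 62.9 and 73.7 RPKM in the dark libraries, 70.3 and 68.2 RPKM under 1000 lux and 61.2 and 63.2 RPKM under 5000 lux. The highest, nuo10.4, had 376 and 291 RPKM in the dark libraries, 378 and 332 RPKM under 1000 lux and 351 and 338 RPKM under 5000 lux. The libraries of the 3 conditions overlapped for nuo10.4, while those of nuo14 at 5000 lux overlapped with darkness and lay below 1000 lux. The 7 core subunits encoded in the nucleus are nuo78, nuo51, nuo24, nuo49, nuo30.4, nuo19.3 and nuo21.3c. They hold the flavin and the iron-sulphur clusters or shape the quinone site, and have counterparts in bacterial complex I. Their median mean level was 115 RPKM, against 166 RPKM for the other 22 subunits.

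The lowest member, cya-5, had 2.76 and 2.84 RPKM in the dark libraries, 3.25 and 2.77 RPKM under 1000 lux and 2.82 and 2.73 RPKM under 5000 lux, a mean of 2.86 RPKM. It encodes a pentatricopeptide repeat protein needed to express the mitochondrial gene of oxidase subunit I. Its libraries overlapped in all 3 comparisons.

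Comparing 1000 lux with darkness asks how these genes differ under moderate light in the strain labelled as lacking its main blue-light receptors. Of the 39 members 3 (7.69%), all of complex I, rose at 1000 lux, by 1.2-fold to 1.31-fold, and 0 fell. Across all 7841 genes 16.9% were called at limma adjusted p under 0.05, with 9.13% higher and 7.82% lower. The share of risen members was near that 9.13%. It was below that of 736 other genes within the complex I range of mean level, 66.6 to 344 RPKM. Of those, 15.5% rose and 27.6% were called in either direction. Without adjustment, 14 members were higher and 4 lower at p under 0.05, together 46.2% against 31% of all genes. That 31% covers genes of every level tested, and the share was not taken for genes of like level. limma voom on recovered reads called 4 higher and 0 lower. Under quantile normalization the split was 2 higher and 3 lower. No member was called when 1000 lux replicate 1 was left out (0), and 1 was when dark replicate 1 was.

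nuo9.8, a small complex I subunit gene, had 209 and 208 RPKM at 1000 lux, against 158 and 162 RPKM in darkness. Both libraries at 1000 lux stood above both dark ones. The rise was 1.31-fold, a log2 fold change of 0.38 with an SE of 0.081 (limma adjusted p = 0.0117), and the call was lost without 1000 lux replicate 1 (limma adjusted p = 0.0803). nuo9.8 overlaps NCU04780, and because the strand setting of the counting is not given in the sources used here, reads of the pair cannot be told apart.

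nuo21.3c encodes the core subunit homologous to the mammalian TYKY subunit, which carries iron-sulphur clusters close to ubiquinone. It had 132 and 124 RPKM at 1000 lux, against 96.1 and 103 RPKM in darkness, and the groups did not overlap. On the log2 scale it rose by 0.36, with an SE of 0.085 and a limma adjusted p of 0.0189. Leaving out 1000 lux replicate 1 (limma adjusted p = 0.146) or dark replicate 1 ended this call.

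nuo21.3b, another subunit gene outside the core set, had 182 and 172 RPKM at 1000 lux and 145 and 149 RPKM in darkness, again without overlap. On the log2 scale it rose by 0.27, with an SE of 0.076 and a limma adjusted p of 0.0395. Leaving out any of the 6 libraries ended this call, while the log2 fold change stayed between 0.22 and 0.31.

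**Figure D2:**
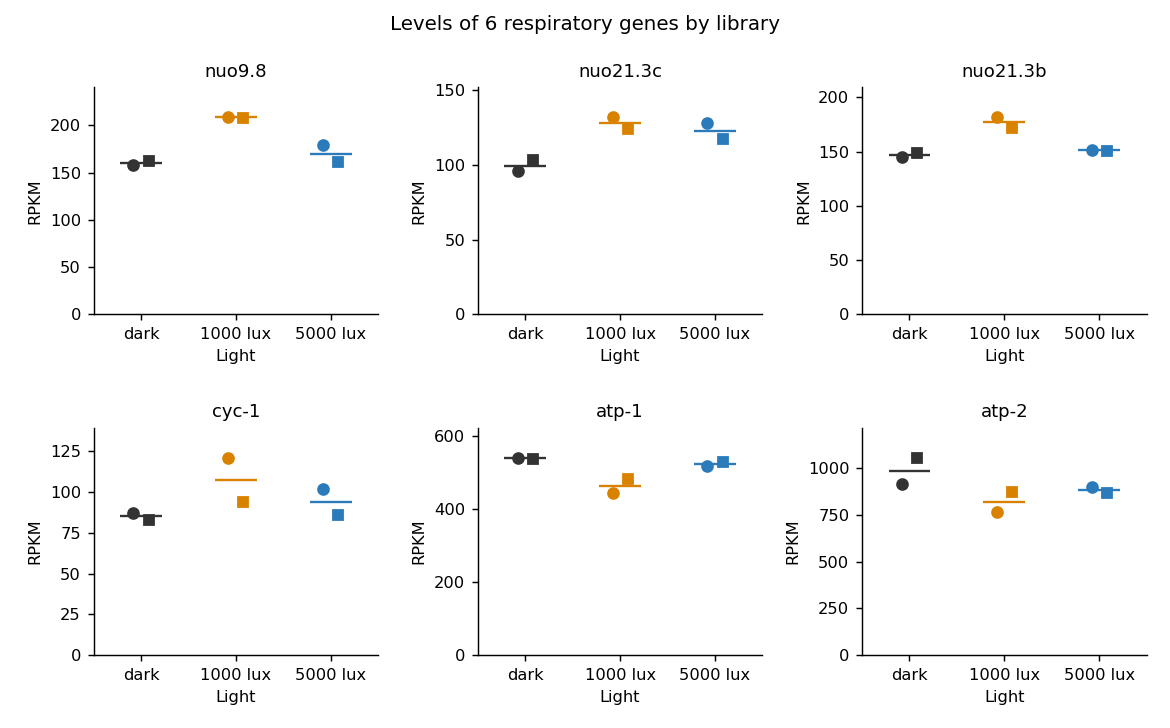
RPKM of 6 genes in each library (circles, replicate 1; squares, replicate 2; lines, means of 2), with axes starting at 0. The 3 nuo genes are higher at 1000 lux than in darkness, nuo21.3c is similarly high at 5000 lux, and atp-1 and atp-2 are lowest at 1000 lux.

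Although few single genes passed the test, most complex I genes had small positive fold changes at 1000 lux. Of the 29, 27 had a log2 fold change above 0, with a median of 0.17 and a highest value of 0.38. Among all genes tested 50.1% were above 0 and the median was 0.00. In 23 of the 29 both libraries at 1000 lux lay above both dark libraries, and in 0 of them below. Among all genes the libraries of these groups did not overlap in 58.8%, with 30.3% above and 28.5% below. Overlap was not counted for genes of like level, in this or the other comparisons. Of 736 other genes within the same range of mean level, 66.6 to 344 RPKM, 56% had a positive log2 fold change, with a median of 0.04, and 15.5% rose. The count of 27 was 28 with median-of-ratios scaling and 27 with quantile normalization, which lowered the median to 0.10. It ranged from 26 to 28 without each library in turn. Of the 18 complex I genes that overlap no other gene, 17 were above 0, with a median log2 fold change of 0.185. In 21 of the 29, 1000 lux replicate 1 was above replicate 2, where 50.8% of all genes tested had replicate 1 the higher. Without 1000 lux replicate 1 the median log2 fold change of complex I was 0.13.

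Another 10 complex I genes, all higher at 1000 lux, had an unadjusted p under 0.05 without passing after adjustment. With the 3 called genes that made 13 of the 29 (44.8%), against 31% of all genes, a share not taken for genes of like level. nuo6.6 had 246 and 196 RPKM at 1000 lux, against 184 and 161 RPKM in darkness, with replicate 1 at 1000 lux far above the other 3. Its difference on the log2 scale was 0.35, with an SE of 0.11 (limma adjusted p = 0.0608). It was called higher with median-of-ratios scaling, voom, the replicate block and without 1000 lux replicate 2. nuo14.8, the homologue of the mammalian B14 subunit, had 306 and 265 RPKM at 1000 lux and 248 and 226 RPKM in darkness (0.27, limma adjusted p = 0.0719). nuo10.5, the homologue of mammalian B8, had 129.6 and 119 RPKM at 1000 lux and 109 and 96.8 RPKM in darkness (0.27, limma adjusted p = 0.1). In each of these the groups stood apart, and replicate 1 was the higher library at 1000 lux. nuo20.8 had 194 and 177 RPKM at 1000 lux and 169.9 and 149 RPKM in darkness. nuo9.5 had 357 and 307 RPKM at 1000 lux and 296 and 275 RPKM in darkness. These belong to the accessory subunits added to the core in eukaryotes, as do nuo20.1, nuo20.9 and nuo17.8. nuo20.1 had 143 and 137 RPKM at 1000 lux and 123 and 122 RPKM in darkness, nuo20.9 had 166 and 153 RPKM at 1000 lux and 140.2 and 139 RPKM in darkness, and nuo17.8 had 229 and 242 RPKM at 1000 lux and 202 and 213 RPKM in darkness. nuo40 and nuo78 complete the 10. nuo40, the homologue of mammalian NDUFA9, which binds a nicotinamide nucleotide, had 245 and 248 RPKM at 1000 lux and 217 and 214 RPKM in darkness (0.19, limma adjusted p = 0.106). Of these genes nuo6.6, nuo14.8 and nuo9.5 overlap NCU00159, NCU00419 and NCU00671, and reads of each pair cannot be told apart. NCU00419 was itself called higher at 1000 lux (0.586, limma adjusted p = 0.00848), while NCU00159 and NCU00671 were not called.

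The 7 core subunits had a median log2 fold change of 0.06 at 1000 lux against darkness, and the other 22 had 0.185. By log2 geometric mean over the dark mean, the core stood at 0.12 in 1000 lux replicate 1 and 0.11 in replicate 2. The other subunits stood at 0.22 and 0.13, so core and other subunits were close in replicate 2. Besides nuo21.3c, nuo78 had the next largest difference among the core genes. It encodes the large iron-sulphur subunit of the NADH-oxidising arm and had 127 and 122 RPKM at 1000 lux, against 106 and 111 in darkness (0.20, SE 0.078, limma adjusted p = 0.109). Its arm partners stayed closer to their dark levels. nuo51, which binds NADH and the flavin, had a log2 fold change of 0.06, and nuo24 had 0.05. At the quinone-reducing end nuo49 had 0.06, nuo19.3 0.06 and nuo30.4 -0.01, and none of these passed the test. At 5000 lux against darkness the order was the other way, with medians of 0.10 for the core and 0.05 for the other subunits. At 5000 against 1000 lux the medians were -0.01 for the core and -0.15 for the others. In 17 of the 22 others and 0 of the 7 core genes both libraries at 5000 lux lay below both at 1000 lux, as in 19.2% of all genes. The difference between the core and the other subunits was not tested.

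The 3 complex III genes had negative log2 fold changes at 1000 lux and cyc-1 a positive one, and none of these passed the test. qcr8 had 412 and 382 RPKM at 1000 lux, against 449 and 449 RPKM in darkness, a log2 fold change of -0.18 (SE 0.076, limma adjusted p = 0.14). qcr7, another small subunit, had 147 and 140.0 RPKM at 1000 lux and 154 and 149.9 in darkness. fes-1, for the Rieske iron-sulphur protein, had 126 and 125 RPKM at 1000 lux and 129 and 136 in darkness. In each of these 3 genes both libraries at 1000 lux lay below both dark ones, as did 28.5% of all genes. cyc-1 had 121 and 93.6 RPKM at 1000 lux, against 87.3 and 82.7 in darkness (0.32, SE 0.13, limma adjusted p = 0.113). The groups did not overlap, but the 2 libraries at 1000 lux differed widely, and the log2 fold change without 1000 lux replicate 2 was 0.50, with limma adjusted p = 0.0332, and without replicate 1 it was 0.14.

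No gene of complex IV or ATP synthase passed the limma test or voom either (0 of 5). Without adjustment 1 of the 3 complex IV genes and both ATP synthase genes had p under 0.05, where 31% of all genes, of any level, did. cya-4, for a nuclear oxidase subunit, had 336 and 367 RPKM at 1000 lux, against 378 and 450.3 in darkness (-0.23, limma adjusted p = 0.152). cox-6 and cox-4 had log2 fold changes of 0.09 and 0.01. atp-1 had 444 and 483 RPKM at 1000 lux, against 541 and 538 in darkness (-0.22, SE 0.077, limma adjusted p = 0.0771). atp-2 had 763 and 875 RPKM at 1000 lux, against 917 and 1056 in darkness (-0.27, SE 0.096, limma adjusted p = 0.087). For both genes the groups did not overlap and 1000 lux was the lower, as in 28.5% of all genes. Both log2 fold changes stayed negative under every scaling. Under quantile normalization cya-4, atp-1 and atp-2 passed the test as lower (limma adjusted p = 0.0434, 0.0239 and 0.0225).

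The geometric mean RPKM of the 2 ATP synthase genes over that of the 29 complex I genes was 4.97 and 5.42 in the dark libraries, 3.62 and 4.24 under 1000 lux and 4.65 and 4.67 under 5000 lux. The 3 pairs of values did not overlap, and 1000 lux had the lowest. For complex III the ratio to complex I was 1.46 and 1.5 in the dark libraries, 1.22 and 1.23 under 1000 lux and 1.4 and 1.37 under 5000 lux. For complex IV it was 1.79 and 1.95, then 1.58 and 1.66, then 1.73 and 1.64, in the same order, and the 2 light intensities overlapped. These ratios over chosen genes were not tested. Summed over all 39 genes, RPKM made up 1.89% to 1.94% of the total in each of the 6 libraries.

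**Figure D3:**
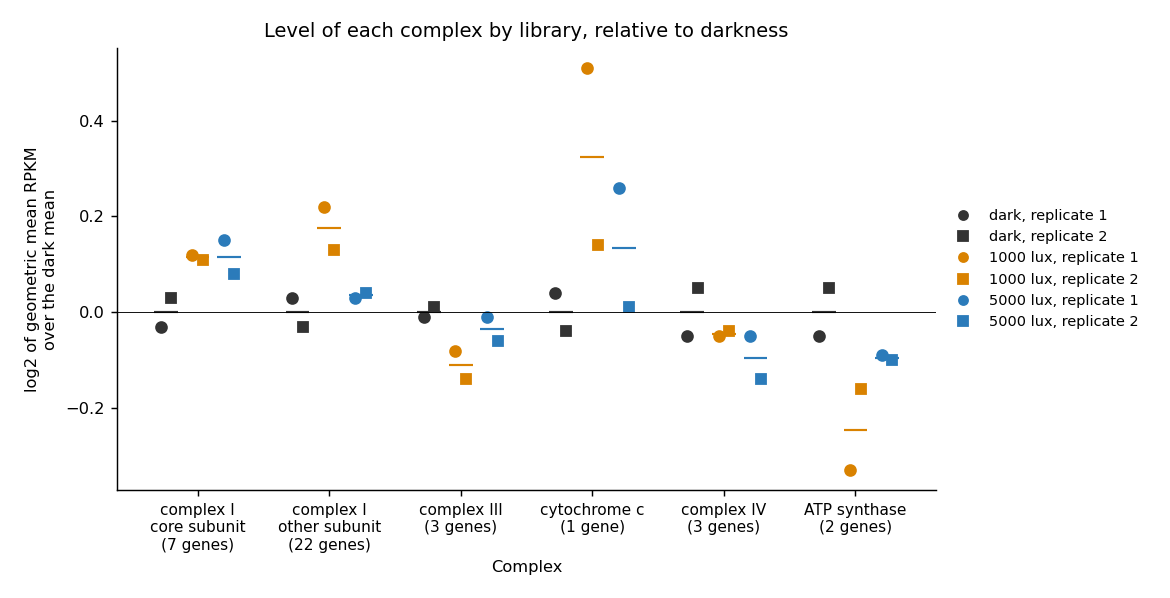
Log2 of the geometric mean RPKM of each complex in each library, relative to the mean of the dark libraries (lines, means of 2 libraries). At 1000 lux the 22 other complex I subunits are at 0.22 and 0.13 and the ATP synthase genes at -0.33 and -0.16.

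At 1000 lux against darkness the members' log2 fold changes ran from -0.27 to 0.38. Those of all 7841 genes tested ran from -2.86 to 2.25. For 37 of the 39 members the 95% interval of the fold change, not adjusted for the number of genes, lay within 1.5-fold in either direction, as it did for 68.5% of all genes tested. The exceptions were nuo6.6 and cyc-1, whose intervals on the log2 scale ran from 0.10 to 0.60 and from 0.04 to 0.60. Intervals of members were also narrower, with a median half-width of 0.18 on the log2 scale, against 0.26 for all genes. Intervals of genes of like level were not compared.

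**Figure D4:**
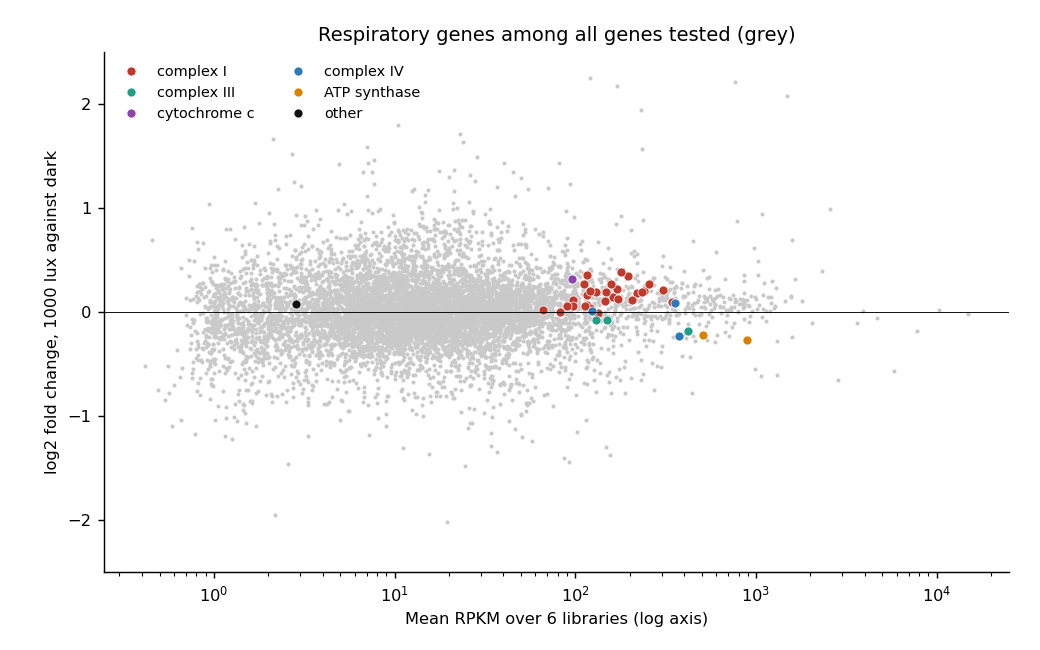
Log2 fold change at 1000 lux against darkness plotted against mean RPKM over 6 libraries (log axis) for all genes tested (grey; 2 genes beyond 2.5 are not drawn) and the 39 members (coloured by complex). Members run from -0.27 to 0.38, with complex I mostly above 0 and ATP synthase below it.

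Comparing 5000 lux with darkness asks the same question at the higher intensity, with the same dark libraries as before. No member passed the limma test (0 of 39), where 9.62% of all genes did, with 6.7% higher and 2.92% lower. Of the 736 other genes within the complex I range of mean level, 14.5% passed. Without adjustment 3 members had p under 0.05 (7.69%, against 24.9% of all genes), and limma voom on recovered reads called 1 as higher. That gene was nuo21.3c, with 128 and 117 RPKM at 5000 lux, against 96.1 and 103 in darkness. Its groups did not overlap, and its difference on the log2 scale was 0.30, with an SE of 0.085 (limma adjusted p = 0.053). With voom its adjusted p was 0.0366, and with a minimum of 5 RPKM the limma adjusted p was 0.0463. The other 2 genes, nuo78 and nuo40, also belong to complex I, and their limma adjusted p-values were 0.115 and 0.185. nuo78 had 129 and 123 RPKM at 5000 lux, against 106 and 111 in darkness (log2 fold change 0.22). nuo40 had 247 and 239 RPKM at 5000 lux and 217 and 214 in darkness (0.17). In both genes the light and dark libraries stood apart.

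Of the 29 complex I genes 23 had a log2 fold change above 0 at 5000 lux, where 54.2% of all genes did, with a median of 0.05 against 0.02 for all genes. That count was 21 with median-of-ratios scaling, 17 with quantile normalization and 18 without dark replicate 2, where the median was 0.02. Both libraries at 5000 lux lay above both dark libraries in 13 of the 29, and below in 0. Among all genes the libraries did not overlap in 52.9%, with 29.8% above and 23.1% below. The 3 complex III genes had log2 fold changes of -0.13 to 0.01, the 3 of complex IV -0.18 to -0.04, and atp-1 and atp-2 -0.04 and -0.16. The 95% interval of every one of the 39 members lay within 1.5-fold, as did that of 73.4% of all genes, whose intervals were wider.

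Comparing 5000 with 1000 lux tests the difference between the intensities itself. The 1000 lux libraries are its lower term here and were the upper term against darkness, so values of these comparisons are not independent. No member passed the limma test (0 of 39), where 3.02% of all genes did, with 1.66% higher and 1.36% lower. Of the 736 other genes within the complex I range of mean level, 8.42% passed. Without adjustment 4 members had p under 0.05, against 15.6% of all genes, and voom called 0. The smallest limma adjusted p was that of nuo9.8, at 0.0969. It had 179.7 and 161 RPKM at 5000 lux, against 209 and 208 RPKM at 1000 lux, and the groups did not overlap (log2 fold change -0.29, SE 0.081). nuo21.3b had 152 and 151 RPKM at 5000 lux and 182 and 172 at 1000 lux (-0.22, limma adjusted p = 0.182). nuo21.3c had nearly equal levels at the 2 intensities (-0.06, with a 95% interval from -0.25 to 0.13). Of the 29 complex I genes 4 had a log2 fold change above 0, where 57.6% of all genes did, and the median was -0.13, against 0.03 for all genes. The count of 4 was 7 without 5000 lux replicate 2 and 2 without 5000 lux replicate 1. Leaving out 1000 lux replicate 1 brought the median to -0.07. Both libraries at 5000 lux lay below both at 1000 lux in 17 of the 29 and above in 2. Among all genes the libraries did not overlap in 48.6%, with 29.4% above and 19.2% below. atp-1 was the 1 member higher at 5000 lux with an unadjusted p under 0.05. It had 519 and 529 RPKM at 5000 lux, against 444 and 483 RPKM at 1000 lux (0.18, limma adjusted p = 0.297). Its groups did not overlap. nuo10.6 was the fourth such gene, with 145 and 159.7 RPKM at 5000 lux and 181 and 170.4 RPKM at 1000 lux. The mean of 24 complex I genes was highest at 1000 lux, a pattern of 29.4% of all genes tested. The 5 others were nuo11.6 and the core genes nuo24, nuo30.4, nuo49 and nuo78.

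**Figure D5:**
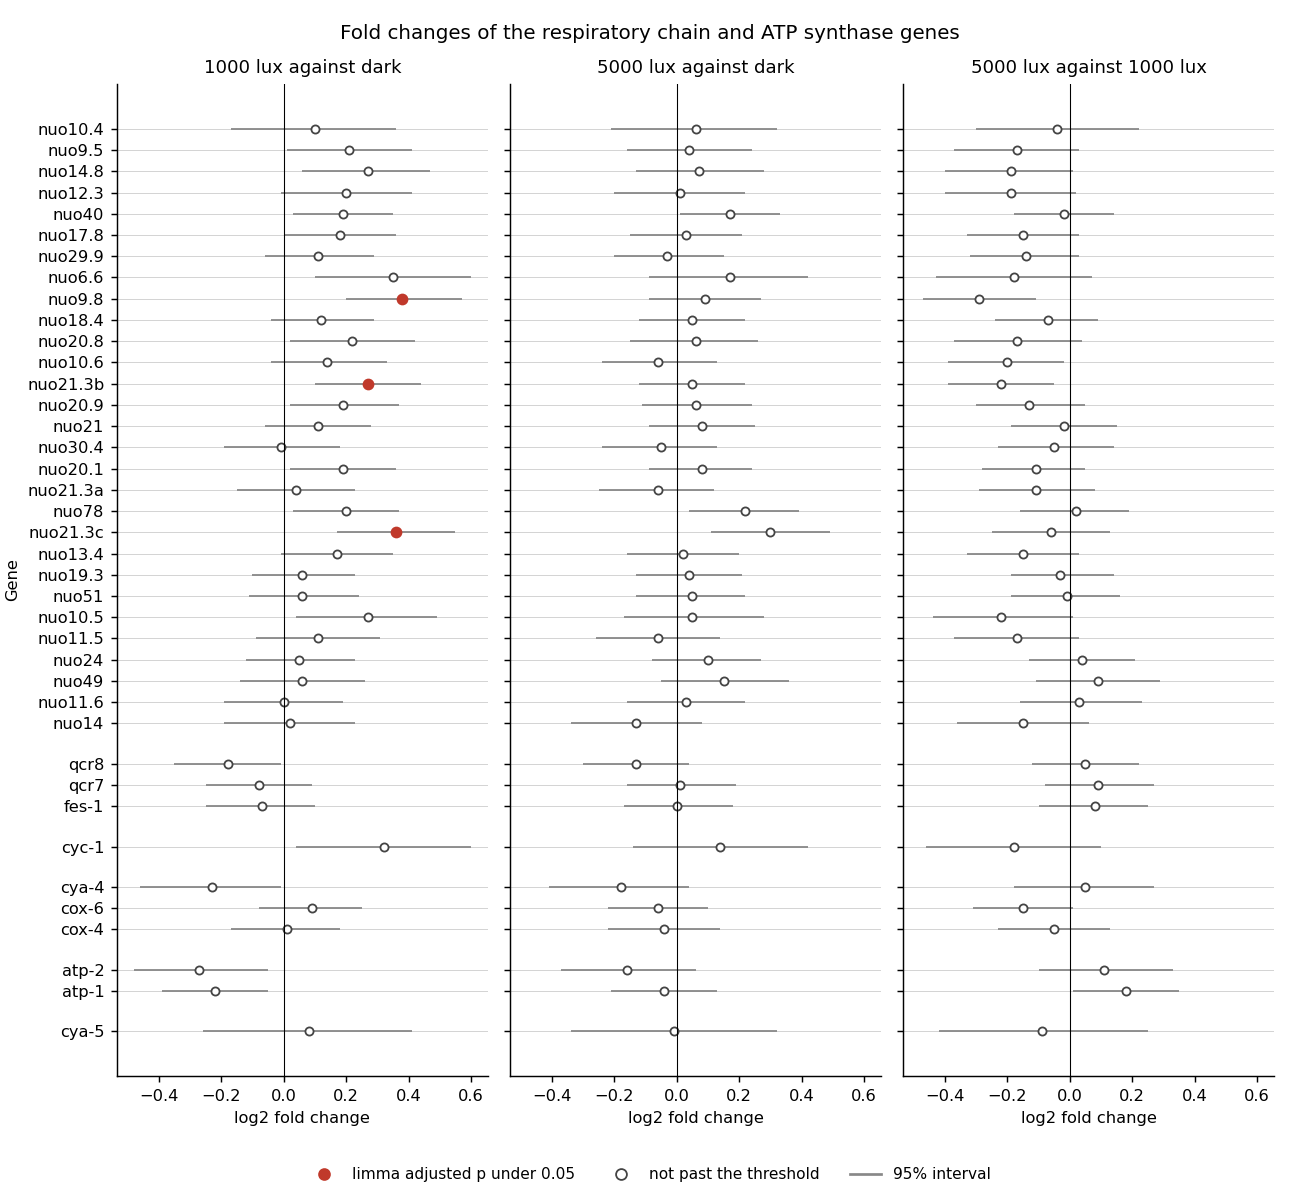
Log2 fold change with its 95% interval for the 39 genes in the 3 comparisons, in the order of the plot of levels. Filled points mark the 3 genes past limma adjusted p under 0.05, all at 1000 lux against darkness; open points did not pass.

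The alternative oxidase gene had a larger difference than any member. Of 8 genes of alternative respiration in the table, 7 were tested, and at both intensities 1 rose and 1 fell against darkness. Among all genes 9.13% rose and 7.82% fell at 1000 lux, and 6.7% rose and 2.92% fell at 5000 lux. aod-1, the alternative oxidase that takes electrons straight from ubiquinol to oxygen, had 25.8 and 23.7 RPKM in the dark libraries, 8.69 and 9.23 RPKM under 1000 lux and 13.2 and 12.5 RPKM under 5000 lux. It fell at both intensities, with log2 fold changes against darkness of -1.37 and -0.90 (limma adjusted p = 6.44e-05 and 0.00146), and no single library left out ended either call. At 5000 against 1000 lux it was higher (0.47, limma adjusted p = 0.0369), a call lost without any of the 4 light libraries. aod-2, a transcription factor that aod-1 needs for its induction, averaged 6.11 ± 0.0525 RPKM in darkness, 9.43 ± 2.09 RPKM under 1000 lux and 9.8 ± 0.956 RPKM under 5000 lux (SD, n = 2 each). It rose at both intensities (0.54 and 0.60, limma adjusted p = 0.0319 and 0.0295), but its calls were lost without either dark library, without 1000 lux replicate 1 and without either 5000 lux library. Its log2 fold change at 1000 lux lay between 0.33 and 0.74 without each library in turn. aod-5, another transcription factor that aod-1 needs, had 5.56 and 7.31 RPKM at 1000 lux, against 8.85 and 8.22 RPKM in darkness. Its groups did not overlap, and its difference was -0.37 (limma adjusted p = 0.0907). The second oxidase gene aod-3 stayed under the minimum, at 0.262 to 0.769 RPKM. The alternative NADH dehydrogenase genes had low levels, with ndi-1 at 1.69 to 3.12, nde-1 at 14.1 to 19.2, nde-2 at 27.6 to 37.1 and nde-3 at a mean of 13.3 RPKM. None passed the test in any comparison. At 5000 against 1000 lux ndi-1, nde-1 and nde-2 had unadjusted p under 0.05, as did 15.6% of all genes. They were higher without overlap (0.40, 0.27 and 0.26, limma adjusted p = 0.315, 0.297 and 0.303), as were 29.4% of all genes, while nde-3 overlapped (-0.10).

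Among 9 genes with cyt symbols, loci found through cytochrome defects, 2 rose and 1 fell at 1000 lux and 3 rose and 0 fell at 5000 lux, all against darkness. The shares of all genes were 9.13% higher and 7.82% lower at 1000 lux, and 6.7% higher and 2.92% lower at 5000 lux. cyt-18, the mitochondrial tyrosyl-tRNA synthetase that also helps introns to splice, had 7.8 and 8.05 RPKM in the dark libraries, 13.9 and 12 RPKM under 1000 lux and 13.6 and 13 RPKM under 5000 lux. cyt-19, a DEAD-box protein of intron splicing, had 16.7 and 16.7 RPKM in the dark libraries, 24.8 and 20.6 RPKM under 1000 lux and 27.3 and 27.1 RPKM under 5000 lux. The libraries of both genes in light lay above those in darkness, and their log2 fold changes were 0.64 and 0.42 at 1000 lux and 0.68 each at 5000 lux. The cyt-18 and cyt-19 calls were lost without replicate 1 of the light compared, and cyt-19 at 1000 lux also without either dark library. cyt-2, the heme lyase of cytochrome c, rose at 5000 lux (30.6 and 31.7 RPKM, against 21.6 and 18.8 in darkness; 0.61, limma adjusted p = 0.0133), a call lost without either 5000 lux library and without dark replicate 2. cyt-20, a valyl-tRNA synthetase, fell at 1000 lux (63.2 and 67.3 RPKM, against 80.4 and 94.1 RPKM in darkness; -0.41, limma adjusted p = 0.0163), a call lost without 1000 lux replicate 1 and without dark replicate 2. cyt-1, the structural gene of cytochrome c1 in complex III, had 18 to 22.6 RPKM and passed in no comparison.

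Of 6 genes of carriers, porin and related functions, 1 passed the limma test, as lower at 1000 lux against darkness, where 7.82% of all genes were lower. pep, the processing peptidase subunit that in Neurospora crassa is also a core protein of complex III, had 193 and 191 RPKM at 1000 lux, against 251 and 249 in darkness. Its groups did not overlap, its log2 fold change was -0.38 (limma adjusted p = 0.0125), and the call was lost without either 1000 lux library. oli, the proteolipid subunit of the ATP synthase ring, and aac, the ADP/ATP carrier, were the most abundant. oli had 1120 and 1249 RPKM at 1000 lux, against 1371 and 1497 in darkness (-0.28, limma adjusted p = 0.064). aac had 1422 and 1497 RPKM at 1000 lux, against 1692 and 1752 in darkness (-0.24, limma adjusted p = 0.0992). Both lay below their dark libraries, as atp-1, atp-2 and 28.5% of all genes did. The remaining genes of the list, por, oxa-1 and mpp, overlapped with darkness, with log2 fold changes of -0.03, -0.03 and 0.03.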

How the data were processed

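The authors deposited RPKM values. CASAVA 1.8 and HISAT are named, without their roles, in the submitters' processing notes. Which genome build, annotation, counting tool and strand setting were used is not given in the sources used here. From these values log2(RPKM + 1) was computed, and the 7841 genes that reached 1 RPKM in 2 or more libraries were fitted with limma (version 3.58.1, R 4.3.3). All 3 conditions shared a single fit with a trend of variance on level (3 residual degrees of freedom, prior 6.87). P-values were Benjamini-Hochberg adjusted over all genes tested in each comparison and called under 0.05. Fold changes are on the log2(RPKM + 1) scale. Whole reads were recovered from the steps between values (9773 of 9773 genes above 0, within 0.005 reads plus a relative 3e-07) for depth and for voom, which called 762 genes higher and 745 lower at 1000 lux against darkness. Reads on genes came to 16460000 to 21630000 per library, and counting errors cover reads only.

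Genes named were those called (up to 6 a complex) and the highest and lowest of each complex. Called genes of 4 symbol lists were also named (up to 4 a list and comparison), and aod-1, ndi-1, nde-1, nde-2 and nde-3 in any case. Other members, among them those with an unadjusted p under 0.05, and other genes of the lists were named after their values were seen. The members and lists were chosen with earlier results of these data known. Symbols were matched to RefSeq NC12, where 12 members overlap another gene, and reads of such pairs cannot be told apart here. Protein and promoter sequences were not used here. The script was tested on simulated data. Alternatives were other pseudocounts (0.1 and 5), filters, scalings, no trend, only the 2 groups compared, a replicate block, voom and leaving out each library, where a lone library is assumed to vary like the others. Figures used Python 3.11.15 and matplotlib 3.10.9.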

Additional observations from a re-analysis of the deposited data

How the results depend on the processing

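At 1000 lux against darkness the number of the 39 members called, 3 in the fit reported, was 0 with no filter on low values, 5 with quantile normalization (2 higher, 3 lower), 1 with no variance trend and 6 with the replicate block (6 higher), and it ranged from 0 to 4 without each library in turn. The other alternatives gave 2 to 4. At 5000 lux against darkness, 0 in the fit reported, it was 1 with a minimum of 5 RPKM and 1 with voom, and 0 otherwise; between the light intensities it was 0 under every alternative run. Without each library in turn both of these counts stayed at 0. With no filter the number of all genes called at 1000 lux was 55 higher and 54 lower, against 716 and 613. Equal replicate numbers did not deviate together (correlations across genes of 0.0515, 0.0282 and -0.0872 between conditions), so the block pairs libraries by number only. Of 26 genes named under the rule, none (0) reversed a call. Leaving out a library also leaves fewer data, so why a call was lost was not tested. Scaling moved the median of all genes by under 0.1 on the log2 scale.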

Other observations

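The tricarboxylic acid cycle supplies the chain with electrons. Of 17 genes with tca or cit symbols, all tested, 1 rose and 1 fell at 1000 lux and 1 rose and 0 fell at 5000 lux, against darkness. That is 5.88% for each count of 1, where 9.13% of all genes rose and 7.82% fell at 1000 lux and 6.7% rose at 5000 lux. The enzymes behind single tca symbols are not named here. tca-3 had 91.1 and 111 RPKM in the dark libraries, 167 and 154 RPKM under 1000 lux and 149 and 129 RPKM under 5000 lux (log2 fold changes against darkness 0.67 and 0.46, limma adjusted p = 0.00358 and 0.0287). All its light libraries lay above the dark ones. The call at 1000 lux was kept without each library in turn, and that at 5000 lux was lost without either 5000 lux library and without dark replicate 1. tca-15 had 247 and 275 RPKM at 1000 lux, against 310.3 and 374 in darkness (-0.39, limma adjusted p = 0.0288), a call lost without 1000 lux replicate 1 and without dark replicate 2. cit-1, for citrate synthase, had 240.0 to 314 RPKM and passed in no comparison.

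The members' mean profile is the average of their standardised log2 values. It was -0.40 and -0.39 in the dark libraries, 0.80 and 0.26 under 1000 lux and 0.04 and -0.30 under 5000 lux. Not every member followed it, since 28 had their highest mean RPKM at 1000 lux and 7 their lowest. The 5 other genes closest to this mean profile over the 6 libraries had Pearson's r of 0.978 to 0.992. They were led by NCU03302 (267 to 319 RPKM) and NCU08344 (509 to 621 RPKM), which have no symbol in the tables used. With 6 libraries and 7841 genes searched, these values are a description only. After the symbols had been seen, 3 more genes were looked at. The complex I assembly genes cia30 and cia84 had log2 fold changes of 0.07 and -0.15 at 1000 lux against darkness, and the gene named as core protein 2 of complex III had -0.14, none past the test.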
